A study of Homo sapiens with 2 samples.

Results

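The heat shock proteins and the DNAJ proteins are the main folding helpers, or chaperones, of the cell. Their genes were taken from the deposited gene table by symbol: the HSPA genes (HSP70 family), HSPH1, the 3 HSP90 genes, the HSPB genes (small heat shock proteins), HSPD1 and HSPE1 (the mitochondrial chaperonin), and the DNAJA, DNAJB and DNAJC genes. The rule found 72 genes among the 27685 listed, of which 43 were DNAJ genes and 29 were HSP genes. It used no measured value. The data were 1 library of untreated H2087 cells and 1 library of untreated H596 cells, both established human cell lines labelled as lung adenocarcinoma and cultured in the same medium. Neither line had been given a heat shock, a drug or any other treatment, so the values are levels in ordinary culture.

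HSP70 proteins bind short greasy stretches of unfolded proteins and release them in a cycle driven by ATP. J-proteins, which the DNAJ genes encode, bring substrates to HSP70 and start ATP hydrolysis, and each compartment of the cell has its own set. HSP90 completes the folding of kinases and receptors, the chaperonin encloses proteins in a chamber, and small heat shock proteins hold unfolded proteins without ATP. Many of these genes are induced by heat shock factor 1 (HSF1), which binds repeats of the 5-base unit nGAAn, and those of the endoplasmic reticulum (ER) by the unfolded protein response.

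The H2087 library held 46961500 estimated counts and the H596 library 55387847. With 1 library per cell line, no difference below has a replicate check, and no test between the lines was possible. Levels are FPKM values, which are relative to transcript length and library size. Bracketed ranges after a level carry the 95% Wilson interval of the gene's counting share over to FPKM, and cover counting error only. Differences are of log2(FPKM + 1), H596 minus H2087, for genes whose FPKM averaged at least 1 over the libraries, and understate the change of low genes. A difference of at least 1 in size is called 2-fold. The median of all 13048 genes so compared was 0.12, and 0.00 after TMM scaling. The label of H596 did not match its markers. NKX2-1, NAPSA and SFTPB, markers of lung adenocarcinoma, stood at 0.51, 0.064 and 0 FPKM in H596, against 110.0, 21.9 and 0.12 in H2087, while KRT7 had 608 and 791. All 4 squamous markers (TP63, KRT5, KRT6A and DSG3) lay between 33.9 and 106 in H596 and between 0 and 1.48 in H2087. SFTPB was thus near 0 in H2087 too. The 5 epithelial markers ranged from 52.3 to 3607 in H2087 and from 59.6 to 2183 in H596. Each difference below is one between these lines, and the part of lineage in it cannot be told apart from other differences between them.

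Most chaperone genes were expressed in both lines, and a few of them made up most of the RNA. An FPKM of at least 1 was found for 58 of the 72 genes in H2087 (80.6%) and 60 in H596 (83.3%), where 45.3% and 45.5% of all listed genes reached it. In each line 11 genes (15.3%) reached an FPKM of 100, as did 2.54% of all genes in H2087 and 2.3% in H596. These were 14 different genes, of which 8 reached it in both lines. The summed FPKM of the 72 genes was 5485 in H2087 and 3960 in H596, or 1.17% and 0.960% of the sum over all genes. The 10 highest genes held 77.8% of the chaperone sum in H2087 and 73.1% in H596. The DNAJ genes summed to 933 and 888 FPKM, so the lower sum in H596 lay almost wholly in the HSP genes, with 4552 and 3072. The sum over all genes was itself lower in H596. As shares of it, the DNAJ genes had 0.199% in H2087 and 0.215% in H596, and the HSP genes 0.972% and 0.745%.

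Of the 72 genes, 60 could be compared between the lines. A 2-fold difference was found for 17 of them (28.3%), against 32.4% of all genes compared. Of the 17, 11 (18.3% of 60) were higher in H2087, where the background was 14.2%, and 6 (10.0%) were higher in H596, where it was 18.2%. After TMM scaling the counts were 13 and 4. The median difference of the 60 genes was −0.16, against 0.12 for all genes, and 34 of the 60 were lower in H596. The share of 2-fold genes was thus slightly under the background as a whole, above it for genes higher in H2087 and below it for genes higher in H596, on counts of 11 and 6. Of 9 further members of these families that carry other symbols, 7 could be compared, and 1 was 2-fold higher in each line: TRAP1 in H2087 and CRYAB in H596. CRYAB, with 0 counts in H2087, was compared because of its level in H596 alone.

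**Figure D1:**
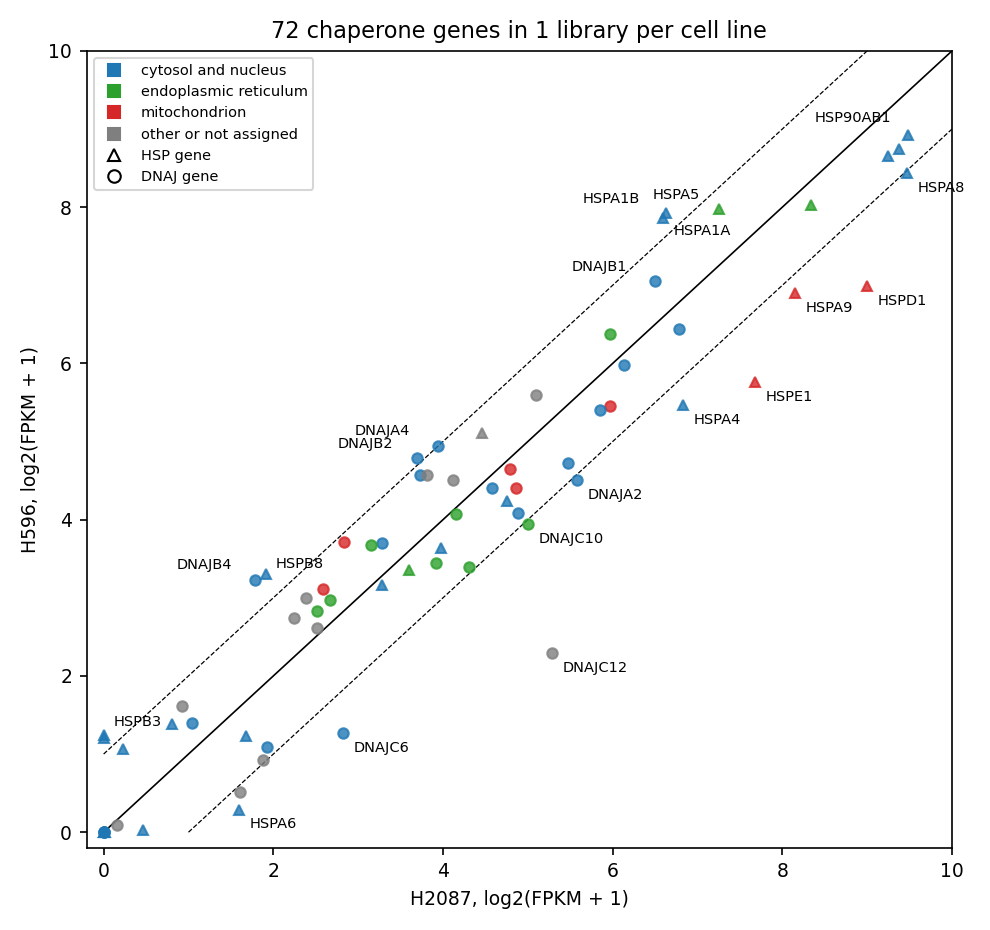
Levels of the 72 chaperone genes as log2(FPKM + 1) in H2087 (x axis) and H596 (y axis), coloured by the compartment of the protein, with triangles for HSP genes and circles for DNAJ genes. The solid line marks equal values and the dashed lines a 2-fold difference. HSPD1, HSPE1 and HSPA9 lie below the lower line and HSPA1A and HSPA1B above the upper line.

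The mitochondrial chaperones were much lower in H596. HSPD1 (gene 3329; hg19 chr2:198351308-198364998), which encodes the chaperonin ring protein HSP60, stood at 509 FPKM (505 to 513) in H2087 and at 126 (124 to 128) in H596. It was thus 4.04-fold higher in H2087, a difference of −2.01. HSPE1 (gene 3336; hg19 chr2:198364721-198368187), which encodes HSP10, the lid of that chamber, had 204 (200 to 209) and 53.1 (51.2 to 55.1), a 3.85-fold difference. The genes lie head to head, with 80 bases between the listed HSPE1 start and that of the main HSPD1 transcript, and their ratio hardly differed: the level of HSPD1 was 2.49 times that of HSPE1 in H2087 and 2.37 times in H596. The minor HSPD1 transcript, with 0.61% and 0.97% of the FPKM, and the readthrough gene HSPE1-MOB4, at 0.683 and 1.72 FPKM, overlap HSPE1, so the values at this locus are uncertain to that extent. HSPA9, the mitochondrial HSP70 that also pulls proteins in through the inner membrane, had 283 (280 to 285) in H2087 and 118 (117 to 120) in H596, a 2.39-fold difference. All 3 mitochondrial HSP genes were therefore 2-fold higher in H2087, and their median difference was −1.92. Together with their J-proteins they made up 20.5% of the chaperone FPKM in H2087 and 10.2% in H596.

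The mitochondrial J-proteins did not differ in this way. None of the 5 was 2-fold different, and their median was −0.14. DNAJA3, the main J-protein of the matrix, stood at 61.8 FPKM in H2087 and at 42.9 in H596. DNAJC19 and DNAJC15, which sit at the import channel with HSPA9, had 28.0 and 20.2 in the first case and 6.13 and 12.1 in the other. DNAJC11 had 26.7 and 24.0, and DNAJC30 had 5.01 and 7.67. TRAP1, the HSP90 of mitochondria, which the symbol rule left out, had 164 and 59.0, a 2.78-fold difference in the direction of HSPA9. Among 13 other genes of mitochondrial import and proteolysis, 2 were 2-fold higher in H2087 (15.4%, against 14.2% of all genes) and 1 in H596 (7.69%, against 18.2%), so the first share was near the background. The median difference of the 13 was −0.42, and 10 of them had lower values in H596. GRPEL1, the nucleotide exchange factor of HSPA9, had 32.0 and 12.7, and PAM16, a J-like subunit of the import motor, had 35.8 and 9.60. The gene 2-fold higher in H596 was AFG3L2, an inner membrane protease, with 21.9 and 48.2, which fell just under 2-fold after TMM scaling (0.97).

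A heat shock element is the sequence to which HSF1 binds, and it was searched for near the start sites because these genes share it as a known regulator. The windows ran from 250 bases before to 50 bases after each RefSeq start (GRCh38.p14), and 84 windows of 64 of the 72 genes were given. Elements of at least 3 units were written as GAANNTTCNNGAA or TTCNNGAANNTTC, where N is any base and each is the reverse complement of the other on the opposite strand. They were found in 7 windows of 7 chaperone genes (8.33% of their windows) and in 0.490% of all 35116 windows. The 7 genes were HSPD1, HSPA8, HSP90AA1, HSP90AB1, HSPA6, DNAJA1 and DNAJB6. A match is a description of the letters and was not tested for binding. RefSeq gives HSPD1 2 starts in this build, at 197499840 and 197500274 on chromosome 2, and HSPE1 1 start at 197500379 on the opposite strand. In HSPD1 the match spanned 4 units, lay upstream of the first of these and downstream of the other, and was 294 bases from the HSPE1 start. These starts are not the ones listed on hg19 with the expression values. The first HSPD1 start and the HSPE1 start were 539 bases apart here, against 80 bases between the listed starts. The 294 bases therefore hold for the RefSeq start in GRCh38 only. In HSP90AA1 the match lay at the downstream of its 2 starts, and no match was found at the upstream one. HSPA8 and HSP90AB1 each held another match of 3 units, from −230 and from −165, which is not printed. The sites are written 5′ to 3′ on the strand of the gene, with the element in capitals, because these 5 genes were among the most highly expressed or the most different of the family.
HSPD1, chr2:197500062-197500090, minus strand: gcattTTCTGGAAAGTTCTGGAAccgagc
HSPA8, chr11:123062171-123062199, minus strand: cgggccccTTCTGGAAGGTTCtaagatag
HSP90AA1, chr14:102087112-102087140, minus strand: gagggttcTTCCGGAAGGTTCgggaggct
HSP90AB1, chr6:44247823-44247851, plus strand: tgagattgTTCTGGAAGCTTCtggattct
HSPA6, chr1:161524458-161524486, plus strand: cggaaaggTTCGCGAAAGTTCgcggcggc

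All 7 genes with such a match were lower in H596, with a median difference of −0.60, and 3 of them (HSPD1, HSPA8 and HSPA6) were 2-fold lower. Of these, HSPA6 was compared because of its level in H2087 alone. The other 57 chaperone genes with a window were lower in H596 in 24 of 49 cases compared. These 2 groups also differed in level: the median FPKM in H2087 was 509 for the 7 genes and 12.2 for the 57. Of the 14 chaperone genes at an FPKM of at least 100 in either line, 10 were higher in H2087. The part of expression level in the direction of the 7 genes was not tested. Of all 13048 genes compared, 5852 were lower in H596, and 14.2% were 2-fold higher in H2087. The shorter element of 2 units, GAANNTTC or TTCNNGAA, is contained in the longer one and occurred in windows of 22 chaperone genes (34.4%) and of 16.2% of all genes. Of the 19 of these genes that were compared, 11 were lower and 8 higher in H596. The matches of HSPA1A and HSPA1L, both among the 8, were the same bases read on opposite strands. That site was thus counted for both genes. HSF1 itself stood at 47.0 FPKM in H2087 and at 59.6 in H596, and HSF2 had 5.43 and 5.53. HSF4 had 5.38 and 4.26, HSBP1, a small protein that binds heat shock factors, had 59.4 and 50.8, and HSF5 had 0 counts in both. HSF1, HSF2, HSF4 and HSBP1 could be compared, and none of them differed 2-fold.

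**Figure D2:**
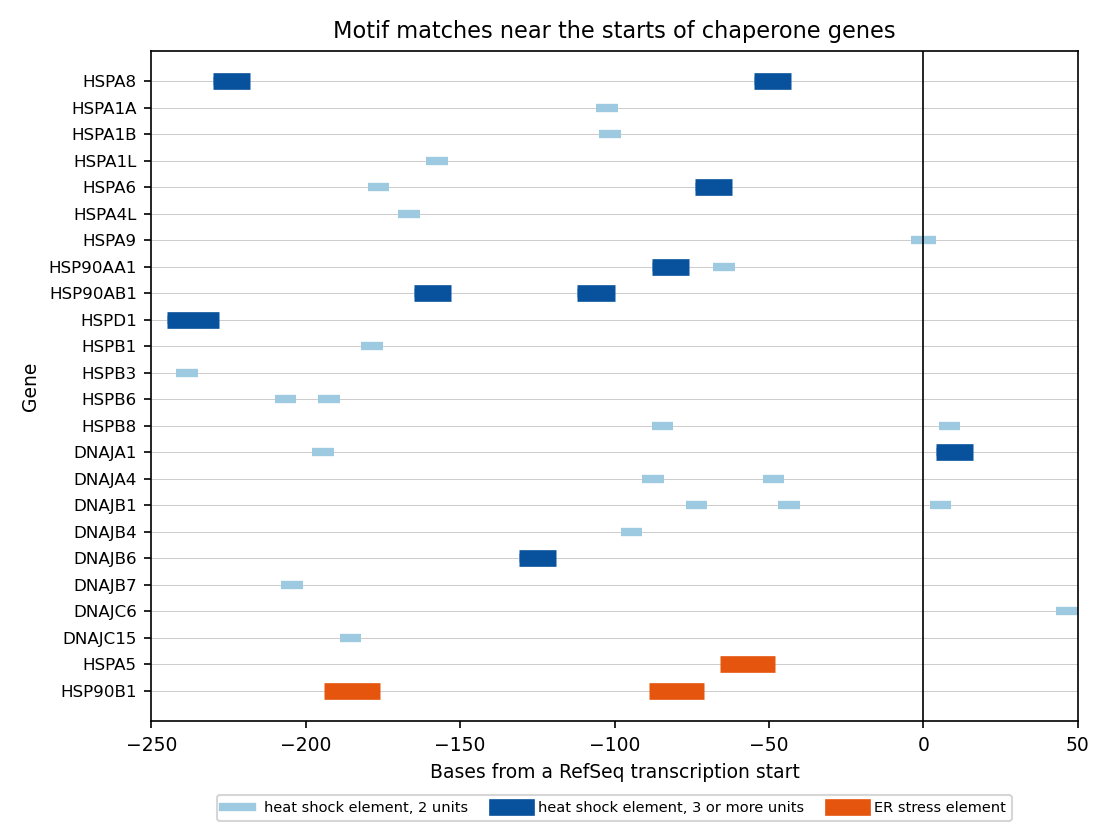
Positions of motif matches in bases from a RefSeq start (x axis) for the 24 chaperone genes with a match (y axis). Light blue bars are heat shock elements of 2 units, dark blue bars those of 3 or more, and orange bars ER stress elements. The dark bars lie in 7 genes and the orange bars in HSPA5 and HSP90B1.

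Within the cytosolic HSP70 genes, the constitutive HSPA8 and the inducible HSPA1A and HSPA1B differed in opposite directions. HSPA8 (gene 3312; hg19 chr11:122928200-122933043), the constitutive HSC70, stood at 706 FPKM (701 to 710) in H2087 and at 344 (341 to 347) in H596, a 2.05-fold difference. HSPA1A and HSPA1B, the neighbouring genes of the inducible HSP70 on chromosome 6, were higher in H596. HSPA1A (hg19 chr6:31783291-31785719) had 95.3 (93.6 to 97.1) in H2087 and 231 (228 to 233) in H596, and HSPA1B (hg19 chr6:31795512-31798031) had 97.9 (96.2 to 99.7) and 241 (238.5 to 243.5). HSPA1A was thus 2.42-fold and HSPA1B 2.46-fold higher in H596. The sum of HSPA1A and HSPA1B was 0.274 times HSPA8 in H2087 (0.270 to 0.278) and 1.37 times in H596 (1.35 to 1.39). This ratio, chosen after its values were seen, does not depend on the scaling between libraries. The sum of the 3 genes was 899 FPKM in H2087 and 816 in H596.

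The values of HSPA1A and HSPA1B cannot be taken as independent. Their transcripts (GENCODE release 44 on GRCh37) were identical at 98.6% of 2148 aligned bases, with an unbroken identical run of 1715 bases, and how reads from the shared stretches were divided is not given in the sources used here. The ratio of HSPA1A to HSPA1B was 0.974 in H2087 and 0.957 in H596. Their upstream sequences were also alike, with 114 identical bases of 119 aligned in the windows printed, and each held a heat shock element of 2 units but no element of 3 units in the form searched. HSPA1A and HSPA8 were identical at 73.4% of aligned bases with no identical run longer than 23 bases. The windows cover bases −150 to −31 from the RefSeq start, on the plus strand, with the 2-unit element in capitals.
HSPA1A, chr6:31815393-31815512: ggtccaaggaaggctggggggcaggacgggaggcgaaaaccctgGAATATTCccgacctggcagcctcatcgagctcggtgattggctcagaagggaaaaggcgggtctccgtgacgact
HSPA1B, chr6:31827588-31827707: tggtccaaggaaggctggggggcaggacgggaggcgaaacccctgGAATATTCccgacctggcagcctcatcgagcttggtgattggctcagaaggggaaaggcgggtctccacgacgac

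Most of the remaining HSP70 genes were lower in H596. HSPA4, a nucleotide exchange factor of the HSP110 class that recharges HSP70, had 113 (111 to 114) in H2087 and 43.2 (42.3 to 44.2) in H596, a 2.61-fold difference. Its relative HSPH1 had 25.9 and 17.8 and was under 2-fold, and so the ratio of HSPH1 to HSPA4 was 0.230 in H2087 and 0.412 in H596. HSPA4L, also of this class, had 8.70 and 7.98. HSPA14, which works at the ribosome, had 14.7 and 11.4, and HSPA2, best known from the testis, had 2.19 and 1.34. HSPA6, a strictly inducible HSP70, had 2.03 in H2087 (230 counts) and 0.221 in H596 (30 counts), a ratio of 9.16 (exact interval 6.24 to 13.9). HSPA7, its pseudogene, had 46 and 3 counts, and the FPKM ratio was 18.1 (exact interval 5.82 to 91.0). HSPA6 and HSPA7 transcripts were identical at 98.2% of 1933 aligned bases, so the split between them is uncertain as well. HSPA6 was therefore higher in H2087 while HSPA1A and HSPA1B, which are also heat-inducible, were higher in H596. HSPA1L, a testis form, had 0.743 and 1.62, and HSPA12A, a distant relative, had 0.170 and 1.10, which was too low to be compared. HSPA12B had 2 counts in H2087 and 0 in H596.

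**Figure D3:**
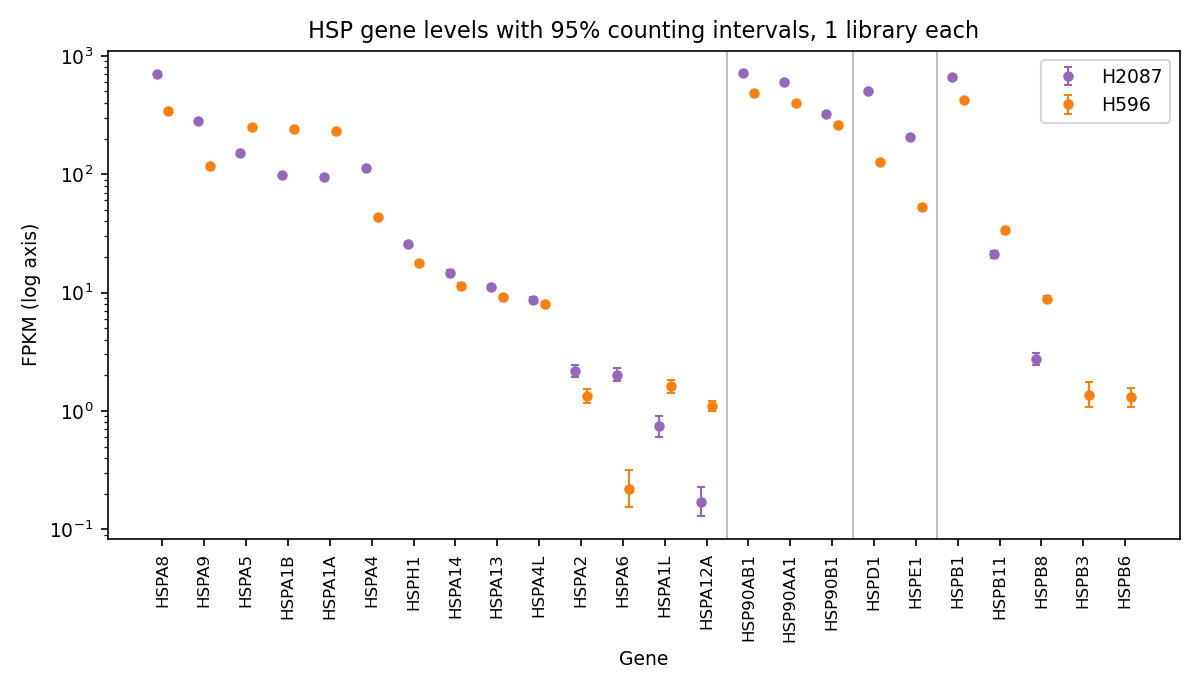
FPKM (log axis) of the HSP genes that reached 1 in either line, with H2087 in purple and H596 in orange, and bars for 95% counting intervals. Values at 0 are not drawn. HSPA8, HSPA9, HSPD1 and HSPE1 are higher in H2087, and HSPA5, HSPA1A and HSPA1B are higher in H596.

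The HSP90 genes were among the highest of all genes in both lines. HSP90AB1, the constitutive cytosolic form, ranked 99 in each library, with 712 FPKM (708 to 717) in H2087 and 484 (481 to 488) in H596. HSP90AA1, the inducible form, had 606 (602 to 610) and 400 (397.5 to 403). Both were lower in H596 by under 2-fold, 1.47-fold and 1.51-fold, and their ratio was 0.850 and 0.826. The deposited transcripts of HSP90AA1 nevertheless differed. NM_005348, from the downstream start, had 582 and 308, whereas NM_001017963, whose listed start lies 52.6 kb upstream, had 23.6 and 92.1. The share of the long transcript was 3.90% in H2087 and 23.0% in H596, a change of 19.1 points, and this gene was singled out after its values were seen. How the assembler divided reads of the shared exons bears on this split and was not tested.

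The small heat shock proteins ranged from very high to absent. HSPB1, or HSP27, which shields actin filaments and unfolded proteins, had 663 (655 to 670) in H2087 and 426 (421 to 432) in H596. HSPB8, the partner of BAG3 in the removal of aggregates by autophagy, had 2.76 and 8.85 and was 3.21-fold higher in H596. HSPB11, also known as IFT25 and a part of the ciliary transport complex, had 21.0 and 33.5. HSPB6 and HSPB3, best known from muscle, had 0 counts in H2087 and 109 and 62 counts in H596. Against the FPKM that 3 counts would give in H2087, HSPB6 was at least 29.9-fold and HSPB3 at least 16.9-fold higher in H596, though the mean FPKM of both was under 1 and they were not among the 60 genes compared. CRYAB, the small heat shock protein αB-crystallin, which has another symbol, likewise had 0 and 354 counts, at least 55.5-fold higher in H596. No count was found in either line for HSPB2, HSPB7 and HSPB9. HSPB8 and CRYAB thus passed 2-fold among the genes compared, at an FPKM under 10, while the abundant HSPB1 was 1.55-fold lower in H596. CRYAB was compared because of its level in H596 alone.

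In the ER the directions were mixed. HSPA5, or BiP, the HSP70 of the ER, stood at 152 FPKM (150 to 153) in H2087 and at 250 (248 to 252) in H596. HSP90B1, or GRP94, its HSP90 partner, had 322 (319 to 325) and 259 (257 to 262). The ratio of HSPA5 to HSP90B1 was therefore 0.470 (0.464 to 0.478) in H2087 and 0.962 (0.950 to 0.975) in H596. Among the J-proteins that serve BiP, DNAJB11 had 61.6 and 81.8, DNAJC3 had 7.90 and 11.8, and DNAJB9 had 4.70 and 6.14, whereas DNAJC1 had 14.2 and 9.92. Of the 8 ER J-proteins, 4 had higher and 4 had lower values in H596. DNAJC10, which also reduces disulfide bonds, was the only one of the 11 ER genes with a 2-fold difference and was 2.16-fold higher in H2087, with 31.1 and 14.4. DNAJC14 lay just under 2-fold, with 18.7 and 9.51 (−0.91), and past it after TMM scaling (−1.03) or centring (−1.02). HSPA13, a small HSP70 of the ER, had 11.2 and 9.22. The 11 genes together summed to 645 and 674, with a median difference of −0.07.

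The ER stress element, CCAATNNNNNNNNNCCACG or its reverse complement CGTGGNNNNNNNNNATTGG, to which factors of the unfolded protein response bind, was found for 2 chaperone genes, HSPA5 and HSP90B1. It occurred in windows of 25 genes in all (0.0916% of 27305). HSP90B1 held 1 match in each orientation. These sites are shown because they are what the pair shares while their levels differed in opposite directions.
HSPA5, chr9:125241386-125241414, minus strand: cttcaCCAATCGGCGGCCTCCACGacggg
HSP90B1, chr12:103930211-103930239, plus strand: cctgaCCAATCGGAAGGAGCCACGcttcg
HSP90B1, chr12:103930316-103930344, plus strand: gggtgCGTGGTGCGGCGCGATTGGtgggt

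Of 21 other genes of ER folding and the unfolded protein response, 3 were 2-fold higher in H596 (14.3%, against 18.2% of all genes) and none was 2-fold lower (14.2% of all genes were), with a median of 0.07. TXNDC5, a protein disulfide isomerase, had 25.6 and 101, SEL1L, a part of the complex that exports misfolded proteins, had 10.2 and 26.8, and ERN1, the stress sensor IRE1, had 2.61 and 6.96. HYOU1, the large HSP70 relative of the ER, had 86.3 and 64.1.

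**Figure D4:**
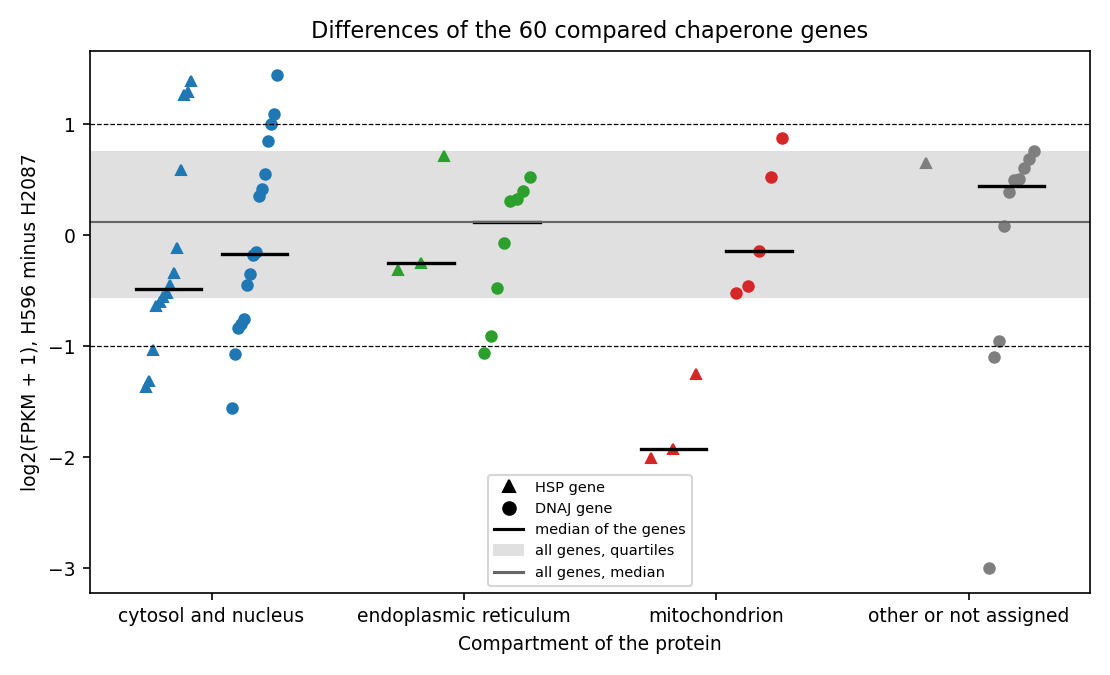
Differences of log2(FPKM + 1), H596 minus H2087, for the 60 compared chaperone genes (y axis) by compartment (x axis), with triangles for HSP and circles for DNAJ genes and black bars for their medians. The grey band and line are the quartiles and the median of all compared genes, and dashed lines mark 2-fold. The 3 mitochondrial HSP genes lie at −2.01, −1.92 and −1.25, below the lower dashed line.

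The cytosolic J-proteins differed one by one. DNAJB1, the partner of HSP70 in dissolving aggregates, had 89.1 (87.4 to 90.8) in H2087 and 131 (130 to 133) in H596, and DNAJA1, a farnesylated partner of HSPA8, had 109 (107 to 111) and 85.5 (84.0 to 87.1). The ratio of DNAJB1 to DNAJA1 was 0.817 (0.796 to 0.838) in H2087 and 1.54 (1.50 to 1.57) in H596. DNAJA2, which is close to DNAJA1, was 2.15-fold higher in H2087, with 46.9 and 21.8. DNAJB6, a suppressor of amyloid aggregation, had 56.6 and 41.2, and DNAJC8, found with the spliceosome, had 69.1 and 62.1. Of the 16 cytosolic DNAJ genes compared, 3 were 2-fold higher in H596 (18.8%) and 2 in H2087 (12.5%), near the shares of all genes (18.2% and 14.2%), and the sum over all of them was 525 FPKM in H2087 and 507 in H596. DNAJB4, a relative of DNAJB1, was 3.42-fold higher in H596, with 2.45 and 8.38. DNAJB2, which carries ubiquitin-binding motifs, had 11.96 and 26.6, and DNAJA4 had 14.3 and 29.9. DNAJB2 and DNAJA4 lay just past 2-fold (1.09 and 1.01) and just under it after TMM scaling (0.96 and 0.88). DNAJC6, or auxilin, which strips clathrin from vesicles in neurons, was 4.32-fold higher in H2087, with 6.06 and 1.40.

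Among the 60 genes compared, the largest difference of log2(FPKM + 1) was that of DNAJC12 (hg19 chr10:69556427-69597937), a co-chaperone of the aromatic amino acid hydroxylases. It had 38.1 (36.5 to 39.8) in H2087 and 3.89 (3.44 to 4.40) in H596 and was 9.78-fold higher in H2087, a difference of −3.00. DNAJC22 was also higher in H2087, with 2.04 and 0.426. It had 420 and 103 counts, and it was compared because of its level in H2087 alone, as was HSPA6. DNAJB3, DNAJB7 and DNAJB8 had 0 counts in both lines, and DNAJB13, of sperm flagella, had 11 and 8 counts. In all, 25 DNAJ genes had a difference of log2(FPKM + 1) under 1 in size at FPKM values below 50 in both lines. Because that difference understates the change of low genes, some of them had an FPKM ratio above 2. DNAJC18 was 2.98-fold and DNAJB5 2.47-fold higher in H2087, and DNAJC28 was 2.29-fold higher in H596.

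The estimated shares of transcripts differed between the lines for some J-proteins. Of the 35 chaperone genes with at least 2 listed transcripts, 22 had a mean FPKM of at least 10, and 4 of these changed their leading transcript or a transcript's share by at least 20 points (18.2%), against 24.7% of 4425 genes with the same limits. The limit given for HSP90AA1 holds for these shares too. For DNAJA4, NM_001130182 held 85.7% of the transcript FPKM in H2087 and 27.3% in H596. NM_018602, whose listed start lies 502 bases upstream, held 6.63% and 67.0%, with FPKM values of 0.950 and 20.01, so the higher total in H596 lay in the estimate for this transcript. For DNAJC10, the main NM_018981 held 73.3% and 52.1%. DNAJC21 and DNAJC4 met the same limits. For DNAJC21, NM_001012339 held 51.0% and 85.2%, and for DNAJC4, the leading transcript was NM_001307981 in H2087, with 57.8%, and NM_005528 in H596, with 61.8%. HSPD1, HSPA8 and DNAJB1 kept 1 leading transcript with over 95% of the FPKM in both lines.

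**Figure D5:**
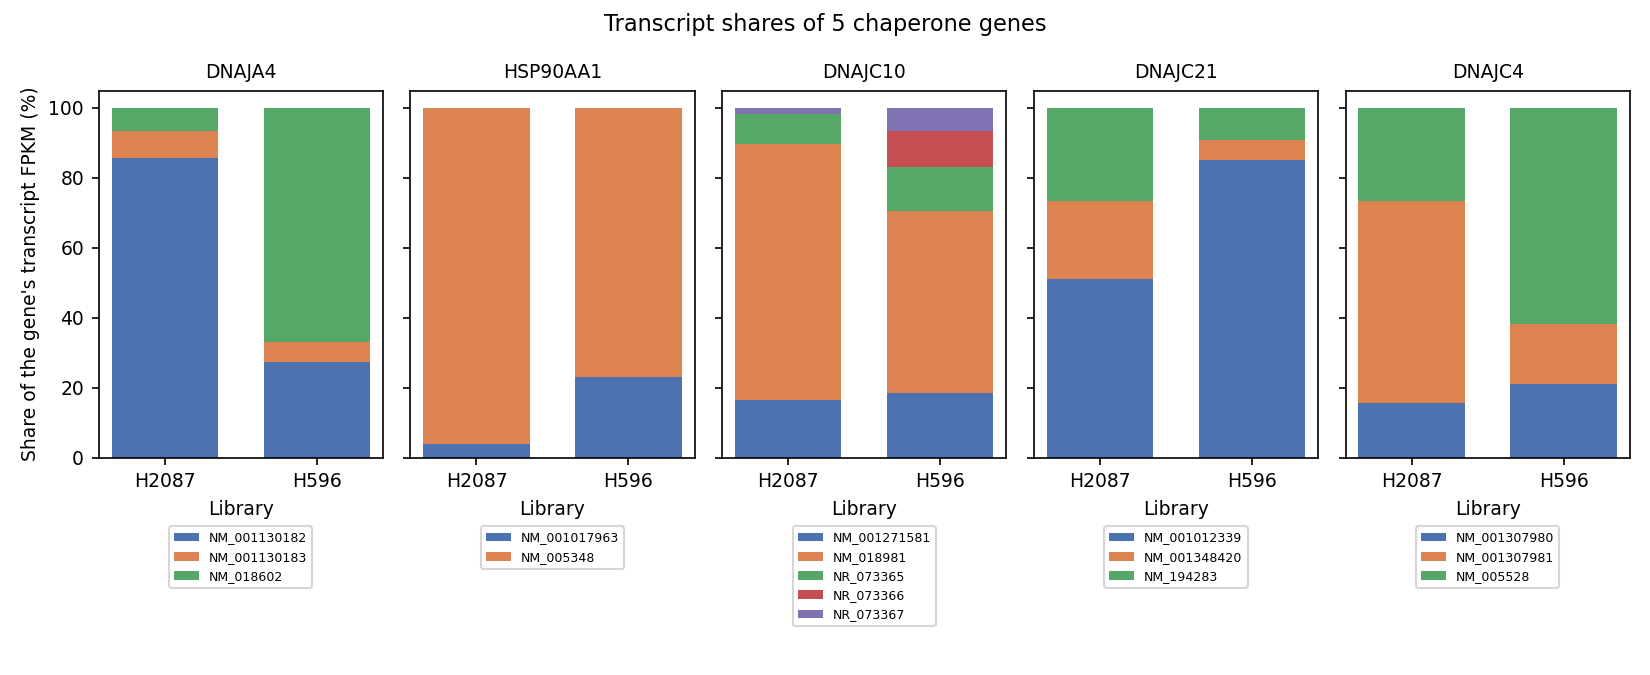
Share of each listed transcript in the summed transcript FPKM of its gene (y axis, %) in H2087 and H596 (x axis) for 5 chaperone genes. NM_018602 of DNAJA4 takes 6.63% in H2087 and 67.0% in H596, and NM_001017963 of HSP90AA1 takes 3.90% and 23.0%.

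The partners of cytosolic HSP70 and HSP90 were, like HSPA8, mostly lower in H596. Of 23 co-chaperones, 5 were 2-fold higher in H2087 (21.7%, against 14.2% of all genes) and 2 in H596 (8.70%, against 18.2%), with a median of −0.51. PTGES3, or p23, which holds HSP90 in its closed form, had 320 and 153. FKBP4 and FKBP5, the immunophilins of steroid receptor complexes, had 66.2 and 25.5 in the first case and 12.05 and 4.21 in the other. BAG2 had 17.5 and 4.35, and BAG3, the partner of HSPB8, had 63.8 and 24.3. BAG3 and HSPB8 thus differed in opposite directions. PPP5C, a phosphatase bound to HSP90, had 16.95 and 38.0, and CDC37L1, a relative of the kinase adaptor CDC37, had 2.08 and 5.18. After TMM scaling both fell just under 2-fold (0.99 and 0.91).

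Most genes of the cytosolic chaperonin, which folds actin and tubulin, differed in the same direction as HSPD1 and HSPE1. Of 15 genes of this ring and of prefoldin, which hands substrates to it, 5 were 2-fold higher in H2087 (33.3%, against 14.2% of all genes) and 1 in H596 (6.67%, against 18.2%), with a median of −0.93. The ring subunits CCT4, CCT2, CCT8 and TCP1 had 250.8 and 83.1, 164 and 56.6, 214 and 86.5, and 119 and 55.8. The prefoldin subunit PFDN2 had 184 and 84.3. CCT6B, a testis form, was 2-fold higher in H596, with 0.420 and 2.63, and was compared because of its level in H596 alone. The other 3 of the 4 genes with higher values in H596 were under 2-fold: the ring subunit CCT6A, with 207 and 216, which was lower in H596 after TMM scaling (0.06 and −0.07), and the prefoldin subunits PFDN4, with 17.4 and 22.4, and VBP1, with 27.2 and 36.0.

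The chromosomal surroundings of the 17 genes with a 2-fold difference were compared too. The median difference of the 40 nearest compared genes, 20 on each side, lay between −0.66 and 0.61 for all of them and had the sign of the gene in 11 of 17 cases. After the median of all genes was subtracted, it did so in 13 of 17. No such share over all genes is at hand, so these counts cannot be called high or low. Nor are they 17 separate cases, because HSPD1 and HSPE1 had the same neighbours, as did HSPA1A and HSPA1B. For HSPD1 and HSPE1 the neighbours' median was −0.51, with 30 of 40 neighbours lower in H596, against −2.01 and −1.92 for the genes. HSPA4 and HSPA9, 5.45 Mb apart on chromosome 5, had neighbours at −0.59 and −0.58, and HSPA1A and HSPA1B had neighbours at 0.61. For HSPA8 it was 0.08 and for DNAJC12 −0.32. HSPB8 went against its neighbours, at 1.39 against −0.66. The part of gene copy number in these differences was not tested.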

How the data were processed

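RNA was measured in 1 library each of untreated H2087 and H596 cells. According to the paper and the submitters' processing notes, stranded mRNA libraries were made, reads were mapped to hg19 by HISAT2 2.0.5, and abundances came from StringTie 1.3.3b. The authors deposited a gene table and a transcript table. The deposited estimated counts are whole, and how they were made is not given in the sources used here. The deposited FPKM values were used as they stand, as gene values and, for isoforms, as transcript values. The 72 genes, the compartments and the other gene lists were chosen with earlier results of these data known. Genes were named by these rules: all HSP genes, DNAJ genes with an FPKM of at least 50 or a 2-fold difference, and 2-fold genes of the other lists. Others were singled out after their values were seen: HSF1, HSF2, HSF4, HSBP1, HYOU1, the J-proteins of mitochondria and the ER, the isoforms of HSP90AA1, DNAJC21 and DNAJC4, and the ratios of genes. So were HSF5, DNAJB3, DNAJB5, DNAJB7, DNAJB8, DNAJB13, DNAJC18, DNAJC24, DNAJC28, CCT6A, PFDN4 and VBP1. Precision is set by the total counts. Wilson intervals (95%) were computed with scipy 1.17.1. Where a library had no count for a gene, 3 counts stood in as its upper limit. TMM factors came from edgeR 4.0.16 on the estimated counts. No fold change was tested for significance. The 2-fold calls and the intervals were tested on simulated data with counting error only. Differences between cultures and the division of shared reads were not part of it. Motif windows came from RefSeq (GRCh38.p14), matched by gene number, and alignments of transcripts used biopython 1.88. Positions of genes are hg19, as deposited.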

Additional observations from a re-analysis of the deposited data

How the results depend on the processing

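No paired analysis was possible because there was only 1 library of H2087 and 1 of H596, so none could be left out either. Of 134 summary values under alternatives, 122 stayed within 1.5 times of the count or fold as reported, or within the counting interval of a share. For medians this margin was wide. Most family and compartment medians were smaller than it, and could fall to 0 or change sign and still be counted as staying. The DNAJB median, for example, was 0.33 in the main setting and 0 without the filter on mean FPKM. With a pseudocount of 5, which shrinks low genes by construction, 2 chaperone genes were 2-fold higher in H596 and 6 in H2087. With genes averaging at least 10 FPKM, the HSPB median was 0.0078, from 2 genes instead of 3. At an FPKM of at least 50, 18 genes passed in H2087, and at a TPM of at least 100, 19 in H2087 and 18 in H596, since TPM is FPKM times 1 factor per library above 1. The chaperone share of all genes was 1.42% in H2087 and 1.08% in H596 as a share of estimated counts, 1.48% and 1.14% without ribosomal protein genes and mitochondrial rRNA (no other mitochondrially encoded gene was matched), and 1.17% and 0.958% as a sum over transcripts, so it was lower in H596 in each case. Of 210 alternatives for 35 named genes, none turned the direction. A change of pseudocount cannot turn it, and the sum over transcripts gave the same values for these genes. Only the other alternatives could thus have shown a turn. A 2-fold difference was lost by 9 genes with a pseudocount of 5 and by DNAJA4 and DNAJB2 with TMM scaling or centring, and gained by HSPA1L with a pseudocount of 0.1. DNAJC14 and DNAJC18 gained it with TMM scaling (−1.03 each) and with centring (−1.02 and −1.07). Among all 60 compared genes, DNAJC24 changed direction with TMM scaling (0.09 and −0.02). Depth limits the genes with few counts, such as HSPA7, HSPA12B and DNAJB13. Counts near 0 and genes with near-identical copies are uncertain beyond the intervals.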
